A study of Mus musculus with 18 samples.

Results

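Immunoglobulin genes were followed through 54 array probes, chosen by name: all non-control probes whose gene name begins with Igh, Igk or Igl-, without Ighmbp2 and Igll1. They are 54 of the 43426 probes on the array, 34 of them named for the heavy chain, 12 for the kappa light chain and 8 for the lambda light chain. The rule reads names and no measured value. RNA came from thymus cells of C57BL/6 mice, taken 2 weeks after injection of anti-DLL4, an antibody against a ligand of Notch receptors, or of an isotype control antibody. The stated question of the study is how immune cell populations of the thymus shift after this treatment. There were 3 samples of total thymocytes with anti-DLL4 and 4 with the isotype antibody. The CD4-CD8- (DN) fraction had 3 samples of each. The CD4-CD8-CD44+CD25- (DN1) fraction, which lies inside the DN gate, had 3 treated samples and 2 controls. The control group had received an antibody as well, so all groups share an injection. The study's text speaks of 4 animals per antibody and of 3 control thymocyte samples, while the labels give 4. Nothing ties a sample to an animal, so p-values measure the spread between these samples, which may be technical.

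An antibody is built from 2 heavy and 2 light chains. In developing B cells a V segment is joined to a J segment (in heavy chains with a D segment between them) by the Rag recombinase, and the joined exon is spliced to a constant region. The mu constant gene, read first, makes IgM; class switching then places a gamma, epsilon or alpha constant gene next to the same V exon, giving IgG, IgE or IgA. Light chains are kappa or lambda, and most mouse B cells use kappa. Germline V segments can also be transcribed before they are joined, and a B cell that becomes a plasma cell raises immunoglobulin RNA greatly. The normal thymus holds few B cells beside its many T-cell precursors.

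The probes read different parts of these transcripts, and the results below are given by those parts. Differences between the parts were not tested. The files place 8 of the heavy chain probes on the constant side of the locus and 26 among V segments (2 of these, named Ighv4-2, are placed on chromosome 6, off the heavy chain locus). The constant-side probes are 2 of mu (named Igh-6), 1 of gamma (Ighg), 4 at the far end of the cluster and 1 described in the files as an I alpha polypeptide, a transcript that starts upstream of the alpha gene. The 4 far-end probes carry the name Igh-VJ558, and the files trace them to a cDNA of that V family. They lie next to the I alpha probe, at the end of the cluster where the order of genes in RefSeq (GRCm38.p6, used for names and neighbours only) has Igha, and they are called alpha-side probes here. Constant-gene names are no guide to position: an Igh-6 probe (A_52_P311042) and an Ighg probe (A_51_P117903) lie among V segments. No member is named for the kappa constant gene.

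For 2 of the 12 probes named for kappa the label goes against the description. Both are named Igkv14-111 but lie on chromosome 12 and are described in the files as the envelope and superantigen of a mouse mammary tumour virus. Their values are given separately, and neither was called in any comparison.

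The lambda probes are shown because all 8 were called in DN cells. The first reads the constant side (chr16:18975528-18975587, minus strand, mm8), and the next a V segment (chr16:18998734-18998793, minus strand). The last crosses a V-J joint, its ends lying in the V and J parts of the locus (chr16:18976803-18998617, minus strand). Capitals mark TTCGG, letters that encode the phenylalanine-glycine start of a motif kept in light chain J segments.

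Igl-V1 A_52_P450277: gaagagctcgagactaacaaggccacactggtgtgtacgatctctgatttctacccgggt
Igl-V1 A_52_P450276: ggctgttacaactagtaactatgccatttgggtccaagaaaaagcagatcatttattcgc
Igl-V1 A_52_P383114: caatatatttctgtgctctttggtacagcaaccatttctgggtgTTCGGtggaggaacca

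The same 5 letters occur in 3 of the 12 kappa probes, which hold the end of a V segment and the beginning of a J segment. On the array as a whole 1.63% of probes hold TTCGG as written and 3.18% on either strand. These 3 probes, with the same capitals, are set beside A_51_P407657, which reads the end of the same V segment as A_51_P407652, shares 10 positions with it and stops before the J letters.

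Igk-V38 A_51_P407652 (chr6:68665845-68665904, minus strand): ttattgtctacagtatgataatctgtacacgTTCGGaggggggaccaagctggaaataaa
Igk-V19-14 A_52_P664842 (chr6:70336038-70336097, minus strand): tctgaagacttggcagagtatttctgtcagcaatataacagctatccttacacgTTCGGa
Igk-V1 A_52_P957659 (chr6:68200810-68200869, plus strand): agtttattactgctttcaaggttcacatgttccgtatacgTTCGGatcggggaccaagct
Igk-V38 A_51_P407657 (chr6:68665895-68665954, minus strand): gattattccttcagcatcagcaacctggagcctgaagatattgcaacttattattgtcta

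In the heavy chain, sequence of the constant side is shown for mu and for the alpha side, and a pair of V probes for the likeness between V segments. The capitals in the V pair mark their longest identical run, 24 bases, within 56 identical bases of 60.

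Igh-6 A_51_P485421 (chr12:113869227-113869286, minus strand): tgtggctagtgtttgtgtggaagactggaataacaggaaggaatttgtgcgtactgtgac
Igh-VJ558 A_51_P180159 (chr12:113706840-113706899, minus strand): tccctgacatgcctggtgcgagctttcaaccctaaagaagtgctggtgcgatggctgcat
Igh-VJ558 A_51_P108512 (chr12:113706720-113706779, minus strand): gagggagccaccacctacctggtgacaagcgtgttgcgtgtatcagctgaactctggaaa
Ighv1-72 A_51_P230716 (chr12:116206000-116206059, minus strand): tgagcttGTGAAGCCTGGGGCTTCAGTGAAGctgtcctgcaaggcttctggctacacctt
Igh-VJ558 A_51_P346679 (chr12:116309883-116309942, minus strand): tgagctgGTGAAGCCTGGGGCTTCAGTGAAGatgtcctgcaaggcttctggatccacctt

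The members are not independent of each other. A_51_P108512 and A_51_P187645 have the same 60 bases. In all 12 pairs share a run of 20 or more identical bases and 9 pairs overlap in position. Linked this way, 20 members form 6 groups and 34 stand alone, which leaves 40 separate units. The other pairs with long runs were A_52_P151887 and A_52_P686392 (35 bases) and A_51_P272341 and A_52_P139027 (33 bases), all Igh-VJ558. V segments are families of near-identical genes, so a V probe may bind transcripts of its relatives, and each probe is a reading of its sequence rather than of 1 gene.

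Levels are on a log2 scale: the processed signal of a spot over the 75th percentile of its array's non-control spots. A log2 difference of 1 is a doubling of signal. From each difference the median difference of all tested probes was subtracted, and the error is the SE of the fit. That median was -0.42 in thymocytes, -0.65 in DN cells and -0.03 in DN1 cells (anti-DLL4 minus control). Testing required 2 arrays of the compared groups with the probe well above background. A call is a limma p under 0.05 after Benjamini-Hochberg adjustment over every tested probe, taken before that subtraction. The 75th percentile of signal, a measure of array strength, ran from 260.2 to 4295.4. Control DN replicates 1 and 2 were the dimmest arrays (260.2 and 337.9). Control DN replicate 3 (675.5) had the smallest share of spots well above background, 59.9%.

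In DN cells immunoglobulin probes rose with anti-DLL4. Of 52 members tested 19 were called, all 19 higher, among a background of 2.33% of all tested probes called higher. At an unadjusted p under 0.05 there were 25, where 28.8% of all tested probes passed. In 22 members every treated array lay above every control array, against 9.7% of all tested probes. The called members were all 8 lambda probes, 6 of 8 constant-side heavy chain probes, all 3 kappa probes with the J letters, 1 of the 7 other kappa probes and 1 of 24 tested heavy chain V probes. Without the 2 virus-described probes the count is 19 of 50. The 19 fall into 16 separate units when probes that share sequence are joined. The median difference of the tested members was 2.35, where the middle range of all tested probes (between the lower and upper quartile) ran from -1.05 to 1.09.

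The lambda constant-side probe A_52_P450277 read 0.27, -0.31 and -2.17 on the 3 control DN arrays and 5.66, 5.62 and 5.45 on the 3 treated ones. All treated arrays lay above all controls, and the treated arrays lay close together (5.58 ± 0.11, SD, n = 3) while the controls spread widely (-0.74 ± 1.27, SD, n = 3). The difference was 6.96 ± 0.80 (adjusted p = 0.00046). The V probe A_52_P450276 read -5.50, -5.27 and -7.23 in control DN cells, on no array well above background, and 0.62, 0.26 and 0.21 with anti-DLL4. Its signal was at least 64.7-fold higher with the antibody (fitted difference 7.01 ± 0.64, adjusted p = 0.000157). For such a bound the dim group is put at its own level or, where that is lower, at the dimmest level that any detected probe reached on the array.

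The V-J joint probes, which need a joined lambda transcript for a full match, moved as far. A_52_P383114 read -2.10, -3.22 and -4.83 in controls and 3.16, 2.98 and 2.81 with anti-DLL4 (7.01 ± 0.81, adjusted p = 0.00046). A_51_P503757 rose by 6.77 ± 0.70 (adjusted p = 0.000222). The second constant-side lambda probe, A_51_P503756, read 2.78, 2.55 and 0.60 in controls and 7.63, 7.55 and 7.41 when treated (6.20 ± 0.73, adjusted p = 0.000604). The other V probes were A_52_P829408 (6.44 ± 0.62), A_52_P672903 (6.19 ± 0.60), which share a run of 24 bases, and A_52_P622355 (5.28 ± 0.56), the smallest of the 8. All 3 passed the test, with adjusted p of 0.000186, 0.000186 and 0.000321. The V probe A_52_P450276 overlaps A_52_P672903 in 56 positions and A_52_P829408 in 28, so these readings are not separate. Across the 8 probes no array of one group reached into the other.

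Among kappa probes, those with the J letters had a median difference of 6.20 and the 7 others, viral ones aside, of 2.65. A_51_P407652, which holds the J letters, read -3.27, -3.45 and -4.06 in control DN cells and 2.48, 1.70 and 1.71 with anti-DLL4 (6.20 ± 0.70, adjusted p = 0.000432). Its neighbour A_51_P407657, without them, read 2.51, 1.69 and -6.67 in controls and 0.28, -1.54 and 0.78 when treated (1.31 ± 1.76, adjusted p = 0.824). The treated values of the neighbour lie inside the control range, and control replicate 3 alone is low. No test of the difference between the probes or the kappa classes was made. With normexp background the class medians were 2.32 (1 of 3 called) and 1.87 (0 of 7 called). With control DN replicate 3 as the only control they were 6.36 (1 of 3 called) and 5.42 (2 of 7 called).

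Both other kappa probes with J letters were dim in control DN cells, with no array well above background. With anti-DLL4 A_52_P664842 read at least 30.3-fold higher (6.86 ± 0.98, adjusted p = 0.00239). A_52_P957659 was at least 18.5-fold higher (5.23 ± 0.82, adjusted p = 0.00578). Its overlapping partner A_52_P125897, which lacks the J letters and shares 15 positions with it, was at 2.55 ± 1.19 (adjusted p = 0.288). That partner belongs to a set of 3 V probes with shared runs of 23 or 24 bases, together with A_52_P630429 (3.20 ± 1.00, adjusted p = 0.123) and A_52_P829560 (2.37 ± 1.20, adjusted p = 0.341). Among the 7 kappa probes without J letters and not described as viral, differences ran from 1.31 to 4.02. The one called was A_51_P390937 (Igkv14-111, 4.02 ± 0.76, adjusted p = 0.0221). The files describe its transcript as a kappa constant region, but place the probe among V segments (chr6:68186355-68186414).

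On the constant side of the heavy chain the mu probe A_51_P485421 read 0.93, 1.96 and 2.99 in control DN cells and 6.04, 5.89 and 5.80 with anti-DLL4 (4.60 ± 0.63, adjusted p = 0.00271). The second mu probe, A_52_P358360, lies further downstream and read 5.63, 6.61 and 7.01 in controls and 9.22, 8.96 and 9.36 when treated (3.41 ± 0.63, adjusted p = 0.0239). The gamma probe A_52_P74106 read 1.20, 0.80 and -0.03 against 5.69, 3.63 and 5.40 (4.90 ± 0.83, adjusted p = 0.00986). In these 3 probes the groups did not overlap.

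Of the 4 alpha-side probes 3 were called: A_51_P180159 (6.66 ± 1.25, adjusted p = 0.0145) and the identical A_51_P187645 and A_51_P108512 (6.24 ± 1.26 and 6.13 ± 1.24, adjusted p = 0.0231 and 0.0234). The remaining one, A_51_P509679, missed the threshold at 5.42 ± 1.32 (adjusted p = 0.0558). The control arrays of these probes spread widely. A_51_P180159 read 1.47, 2.69 and -2.65 in control DN cells and 6.67, 6.68 and 6.20 with anti-DLL4. The I alpha probe A_51_P270661 went the other way without a call, at -1.10, -1.65 and -3.64 in controls and -4.56, -3.86 and -4.05 when treated (-1.39 ± 0.81, adjusted p = 0.128). A heavy V probe from the same cDNA as the alpha-side probes, A_51_P399996, read -2.50, -3.05 and -4.12 in controls and -4.03, -4.36 and -4.26 when treated (-0.35 ± 0.62, adjusted p = 0.285).

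Heavy chain V probes differed in where the control arrays lay relative to the treated ones. Of 24 tested, 1 was called: A_51_P117903, named Ighg, from the same cDNA as the called gamma probe (-3.05, -4.63 and -6.66 against -1.60, 0.44 and -1.12; 4.66 ± 1.04, adjusted p = 0.0438). The other 23 differences ran from -1.86 to 3.08, and 18 of them were above 0. A_51_P272341 read 2.44, 1.25 and -5.44 in control DN cells and 0.25, 0.45 and 0.70 with anti-DLL4 (1.69 ± 1.45, adjusted p = 0.65). Its partner by sequence, A_52_P139027, read 2.98, 1.56 and -6.51 against 0.64, 0.29 and 1.05 (adjusted p = 0.628). Control replicates 1 and 2 thus lay above all treated arrays and control replicate 3 far below them.

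This order held for the class as a whole. Each probe's level was set against its own mean over the 18 arrays. The median deviation of the 26 heavy V probes was 2.07, 1.37 and -2.37 on control DN replicates 1 to 3, and 0.49, 0.67 and 0.98 on the treated arrays. That of the lambda probes was -2.90, -3.75 and -5.02 on the controls, and 2.19, 1.94 and 1.77 on the treated arrays. For the constant-side heavy probes it was -2.11, -1.49 and -5.42 against 1.71, 1.63 and 1.63. The heavy V median difference of 1.66 was -0.38 without control DN replicate 3 and 4.25 with replicate 3 as the only control array. The 2 dim control arrays read high for V segments of the heavy chain and low for lambda and constant-side probes. Control DN replicate 3 was the lowest of the 3 controls in every class, not in the heavy V probes alone. On control DN replicates 1 to 3 the kappa probes without J letters were at 1.47, 0.04 and -3.57. The virus-described probes were at 1.10, 1.05 and -2.34, and the kappa probes with J letters at -2.52, -3.69 and -3.94. Control DN replicate 3 was the brightest of the controls (675.5 against 260.2 and 337.9). Treated DN replicate 3 was of similar strength (741.3), with medians of 0.98 for heavy V and 1.77 for lambda probes. The part of array strength in these values was not tested.

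The remaining members with shared runs were also not called in DN cells. A_52_P151887 and A_52_P686392 were at 1.69 and 1.46 (adjusted p = 0.602 and 0.656), and A_51_P128248 and A_51_P476757 at 1.27 and 1.13 (adjusted p = 0.835 and 0.827). The V pair printed above, A_51_P230716 and A_51_P346679, was at 1.65 and 1.77, with A_52_P358406, a relative of A_51_P230716, at 1.67 (adjusted p = 0.501, 0.523 and 0.484). The virus-described probes were at 1.51 and 0.61 (adjusted p = 0.689 and 0.985). Of the Igh-6 probe among V segments, A_52_P311042, the difference was 2.20 ± 1.67 (adjusted p = 0.547).

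Between 7 and 8 of the 8 lambda probes were called in each of 17 settings, the fewest with normexp background correction. The count over all members was 10 with the slide as a block (8 lambda, 1 kappa, 1 mu), 12 with the 6 DN arrays alone and 12 without anti-DLL4 replicate 1. Within slide 3, the only slide with both DN groups, all 19 called members were higher in the treated array (2.75 to 6.70). Their calls used these same arrays, so this agreement is no separate evidence. Over all 52 tested members 31 were above 0 there, with a median of 1.11 (lambda 5.89, heavy V -0.25). Treated DN arrays were brighter than controls throughout (741.3 to 1076.8 against 260.2 to 675.5). On slide 3 the control was the dimmest DN array. Leaving out both dim controls gave 18 called members, 13 of them among the 19. That fit has 1 control DN array, assumed to vary like the other groups. Without control DN replicate 3 there were 22 calls, 19 higher and 3 lower (2 heavy V probes and 1 constant-side heavy probe). For these alternative fits the share of all tested probes called is not given, so their counts cannot be set against it.

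Markers of B cells moved with these probes, and their part in the result was not tested. Of 12 genes 9 were called higher in DN cells, and their mean level was -0.37 to -0.05 on control and 3.81 to 4.29 on treated arrays. The T-cell marker mean was 2.96 to 3.43 on control and 0.42 to 1.43 on treated arrays, with 2 of 10 genes called lower. The share of all tested probes called lower is not given here. The median difference of these 10 genes was -1.29, where the middle range of all tested probes was -1.05 to 1.09. In 7463 of 34241 tested probes all control arrays lay above all treated ones. Called higher were 4 of 6 NK-cell, 4 of 7 monocyte and macrophage and 1 of 6 tested dendritic-cell markers. Of all tested probes 2.33% were called higher. None of the 4 neutrophil, 5 erythroid and 5 sort-related genes tested was called. In such mixed samples more cells of a type and more RNA per cell cannot be told apart.

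In total thymocytes 0 of 52 tested members were called (limma), and 21 had an unadjusted p under 0.05, among 14.6% of all tested probes. All 21 were higher with anti-DLL4. Over all tested probes 1.16% were called. Of the 52 differences 51 were above 0, with a median of 2.42, where the middle range of all tested probes was -0.51 to 0.78. In 20 members all treated arrays lay above all controls, among 4.69% of all tested probes. The smallest adjusted p was 0.0827, of the V probe A_52_P265556 (Igkv4-91).

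The 24 tested heavy V probes ran from 0.58 to 4.32 with a median of 2.97. The printed V pair was at 3.80 ± 0.91 and 3.02 ± 1.07 (adjusted p = 0.0866 and 0.271). A_51_P230716 read -3.89, -7.07, -5.31 and -3.77 in control thymocytes and -2.43, -2.0 and -0.46 with anti-DLL4, without overlap.

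Lambda probes ran from 1.37 to 2.77 (median 1.97). A_52_P450277 read 1.19, 1.66, 4.14 and 0.50 in controls and 4.53, 3.90 and 4.16 when treated (2.75 ± 0.75, adjusted p = 0.154). Control replicate 3 lay among the treated arrays. The lambda class median on that array was 0.72, near the treated 0.77 to 1.06 and above the other controls (-1.29 to -0.16).

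The alpha-side probes varied widely between control thymocytes. A_51_P180159 read 5.38, -0.11, 3.04 and 3.68 on the 4 control arrays and 6.22, 6.21 and 6.81 on the treated ones (3.84 ± 1.17, adjusted p = 0.179). The identical A_51_P108512 and A_51_P187645 were at 3.13 and 3.16 (adjusted p = 0.294 and 0.298) and A_51_P509679 at 2.37 (adjusted p = 0.493). The gamma probe A_52_P74106 was at 2.01 ± 0.78 (adjusted p = 0.366). The mu probes were at 1.37 ± 0.59 and 0.94 ± 0.59 (adjusted p = 0.487 and 0.691), and A_51_P485421 overlapped between the groups, at 3.14, 3.88, 4.46 and 3.83 against 4.72, 5.98 and 3.64. The I alpha probe was at -0.22 ± 0.76 (adjusted p = 0.71).

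Within slides 1, 2 and 4 the median over the tested members was 1.93, 2.76 and 2.70. The lambda median was 3.22, 1.98 and -0.11 on the same slides. B-cell markers were called higher in 7 of 12, with a mean level of -2.01 to -1.07 in control and 1.27 to 2.26 in treated thymocytes. NK-cell markers were called higher in 3 of 6, with a mean level of 0.06 to 1.44 against 3.66 to 3.94. Ccr2, 1 of 7 monocyte and macrophage markers, and Cd44, 1 of 5 sort-related genes, were also called higher. Of all tested probes 0.926% were called higher. The part of these markers in the result was not tested. For Pax5, a transcription factor that B-cell identity depends on, none of the control thymocyte arrays rose well above background.

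In DN1 cells 0 of 52 tested members were called (limma), and 0.109% of all tested probes were called. A single member had an unadjusted p under 0.05, against 5.22% of all tested probes: the kappa V probe A_52_P400905 (3.98 ± 1.31, adjusted p = 0.527). Of the 52 differences 40 were above 0, with a median of 0.60, where the middle range of all tested probes was -0.50 to 0.54. In 11 members all treated arrays lay above all controls, among 8.63% of all tested probes. Immunoglobulin signal was already present in the controls. A_52_P450277 read 4.03 and 3.11 in control DN1 cells and 5.31, 4.35 and 4.95 with anti-DLL4 (1.33 ± 0.90, adjusted p = 1). Lambda differences ran from 0.93 to 1.33. The mu probe A_51_P485421 read 4.83 and 3.95 against 5.75, 5.71 and 5.67 (1.35 ± 0.71, adjusted p = 1). The other 7 constant-side heavy probes were at 0.18 to 0.49. With 2 control arrays this comparison has the least precision of the 3. B-cell markers were at 3.01 to 4.01 in controls and 3.76 to 4.15 in treated DN1 cells, with 0 of 12 called. Probe A_52_P90157 lacks a value on control DN1 replicate 2, where its spot was an outlier.

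The differences of the treatment effects were tested directly. These comparisons share arrays with those above. Between DN cells and thymocytes 0 of 53 tested members were called (limma) and 16 had an unadjusted p under 0.05 (8.47% of all tested probes did), with 0.0107% of all tested probes called. All 8 lambda probes had a larger difference in DN cells, by 3.31 to 5.74, and the smallest adjusted p among members was 0.0643 (A_52_P450276). Heavy V probes were at a median of -1.25. Between DN1 and DN cells 1 of 54 members was called, lower, among 0.092% of all tested probes called lower and 0.137% called in either direction. It was the lambda V probe A_52_P450276, whose effect was lower in DN1 cells by 6.01 ± 0.95 (difference -6.01, adjusted p = 0.0455). On no control DN array was this probe well above background, so its differences from the DN effect rest on control values near background. The other lambda probes were at -5.82 to -4.02 without a call. The call held in 5 of 21 alternatives, with adjusted p from 0.00896 to 0.534. Between DN1 cells and thymocytes 0 of 53 members were called, with 2 at an unadjusted p under 0.05 (6.83% of all tested probes) and 0.0894% of all tested probes called.

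Among the controls, DN cells stood lowest for lambda. Against control thymocytes 5 of 51 tested members were called, all lower in control DN cells, among 0.756% of all tested probes called lower. They were 4 lambda probes and the gamma probe. A_52_P450276 was at least 15.7-fold lower in control DN cells (-4.68 ± 0.60, adjusted p = 0.00377). A_51_P503757 was at -4.13 ± 0.66 (adjusted p = 0.0127), A_52_P829408 at -4.12 ± 0.58 (adjusted p = 0.00646) and A_52_P672903 at -3.85 ± 0.56 (adjusted p = 0.00854). The gamma probe A_52_P74106 read 6.28, 3.81, 2.71 and 5.15 in control thymocytes against 1.20, 0.80 and -0.03 in control DN cells (-4.18 ± 0.78, adjusted p = 0.0293). This count was 24 without control DN replicate 3 (18 higher and 6 lower), and 0 with the slide as a block. The share of all tested probes called in those fits is not given.

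Control DN1 cells stood above control DN cells in 10 of 51 tested members, none of them lower, among 0.924% of all tested probes called higher. The 10 were all 8 lambda probes and 2 kappa probes with J letters. The largest were A_52_P664842, at least 15.7-fold higher (5.92 ± 1.09, adjusted p = 0.0304), and A_52_P450276, at least 25.7-fold higher (5.69 ± 0.71, adjusted p = 0.00409). Next came A_52_P383114 at 5.34, A_51_P503757 at 5.07, A_52_P829408 and A_52_P450277 at 4.97 each, A_52_P672903 at 4.85 and A_51_P407652 at 4.76 (adjusted p from 0.00625 to 0.031). DN1 cells are part of the DN gate. This result rests on 2 DN1 arrays: 0 members were called without control DN1 replicate 1, 2 without replicate 2 and 4 without control DN replicate 2. It was 0 with these 5 arrays alone. Constant-side heavy probes were at a median of 3.88 and heavy V probes at 0.96, with 0 called.

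After anti-DLL4 no member was called in either tested comparison of populations. Treated DN1 cells were not compared directly with treated thymocytes. Of 52 tested members 0 were called between treated DN cells and treated thymocytes (limma, 4 at an unadjusted p under 0.05 against 7.42% of all tested probes, with 0.28% called) and 0 between treated DN1 and treated DN cells (1 at an unadjusted p under 0.05). In the latter 0 of 35160 tested probes were called, with 1523 (4.33%) at an unadjusted p under 0.05. Lambda probes lay 0.82 to 1.32 higher in treated DN cells than in treated thymocytes, and 0.36 to 0.86 lower in treated DN1 than in treated DN cells (differences -0.86 to -0.36).

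Partners of immunoglobulin were read from lists of other genes, each by its brightest probe. In DN cells 11 of 18 genes of the B-cell receptor and of recombination were called, all 11 higher, against 2.33% of all tested probes. The recombination genes of this list were not among them: Rag1 was at -0.50, Rag2 at 1.14 and Dntt at -0.65 (adjusted p = 0.338, 0.761 and 0.188). Igll1 and Vpreb1, which form the surrogate light chain of the pre-B-cell receptor, were at 8.21 ± 1.5 and 6.89 ± 1.09 (adjusted p = 0.0105 and 0.00484). Vpreb3, an associated protein, was at 7.31 ± 1.04 and Pax5 at 7.92 ± 0.83 (adjusted p = 0.00231 and 0.000222). The genes of this list without a call ran from -0.82 (Pou2f2) to 3.08 (Vpreb2). Among them was Cd79a at 1.77 ± 0.74 (adjusted p = 0.317). Of 16 tested genes of plasma cells and secretion 8 were called, all higher. They included Jchain, which links IgM and IgA into polymers (6.60 ± 0.88, adjusted p = 0.00162), and Mzb1, a chaperone of immunoglobulin assembly (5.86 ± 0.53, adjusted p = 0.000157). Irf4, a transcription factor of plasma cells, was at 7.03, and the surface receptor Slamf7 at 7.66. The genes named from this list had its largest differences. Its tested genes without a call ran from 0.59 (Xbp1) to 4.68 (Prdm1), with Hsp90b1 at 0.79 and Sdf2l1 at 1.04. Of 12 tested genes of class switching and germinal centres 2 were called higher, the receptor Cd40 (4.09 ± 0.52, adjusted p = 0.00188) and the repressor Bcl6 (2.56 ± 0.51, adjusted p = 0.0487).

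In thymocytes these lists had 5 of 18, 4 of 16 and 0 of 13 called, all higher, among 0.926% of all tested probes called higher. Among the called genes the difference was largest for Vpreb3 in the first list (7.39 ± 0.97, adjusted p = 0.002) and for Prdm1, a plasma cell regulator, in the next (5.19 ± 1.07, adjusted p = 0.042). In DN1 cells the calls were 0 of 18, 0 of 17 and 0 of 13, with median differences of 1.26, 0.46 and 0.05. Without a call, Vpreb1 was at 6.51 ± 1.21 and Igll1 at 6.15 ± 1.68 there (limma, adjusted p = 0.0522 and 0.309). Vpreb3 was at 5.40 and Vpreb2 at 3.62, while Rag1 and Dntt were at -0.19 and -0.96.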

How the data were processed

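Per the file headers, the deposited intensity values came from Agilent arrays of a single colour, read with Feature Extraction 9.5.3.1 and placed on mm8. They were background-subtracted and detrended, not normalized between arrays. Per the submitters' processing notes the version was 9.5. RNA was amplified before labelling, per the labels' protocols. Deposited 0 or 1 flags marked spots well above background and outlier spots, which were left out. A deposited series-wide file holds a linear ratio per probe and array (column medians 0.638 to 1.423) and was an alternative. Its log2 followed the probe-centred intensity in the same direction (r of 0.833 to 0.956 over probes), and its exact centring is not known.

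From the intensity, log2 levels minus the 75th percentile were fitted with limma 3.58.1 (R 4.3.3, data.table, version 1.17.8) as 6 group means over 18 arrays, for probes well above background on 2 or more. The fit was tested on simulated data. Summaries used Python 3.11.15 and pandas 2.3.3. No 2 arrays were copies (highest correlation 0.967). The number of arrays limits the precision.

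Members and lists were chosen with earlier results of these data known. Named with values are probes of constant genes, called members (the 8 largest differences without overlap where more were called) and members sharing a run of 20 or more bases. Others, among them A_52_P622355, A_51_P407657, A_52_P957659, A_51_P390937, A_51_P399996, A_52_P265556 and A_52_P400905, were named after their values were seen.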

Additional observations from a re-analysis of the deposited data

Results flagged for a closer look

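The lambda V probe Igl-V1 A_52_P450276 stood out because its treatment effect differed between DN1 and DN cells by the test of that difference: -6.01 ± 0.95 log2 units (limma, adjusted p = 0.0455). The probe was well above background on no control DN array, so the size of this difference rests on control values near background. The adjusted p ran from 0.00896 to 0.534 over 21 alternatives, 5 of which kept the call. The difference itself ran from -6.96 to -2.26. Single arrays far from the rest of their group could be sought only in the 4 control thymocyte arrays, where 0 of 54 probes had one beyond Dixon's limit.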

How the results depend on the processing

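Limits: groups hold 2 to 4 arrays, array strength and antibody move together in DN cells, and control DN replicate 3 differs from replicates 1 and 2. Each count is of called members, with the reported count in parentheses. The share of all tested probes called is given for the reported fits only. A changed count can therefore not be set against the call rate of its own fit. In DN cells (19) the count was 10 with the slide as a block, 12 with only the groups compared and 12 to 22 when single arrays were left out (the 22, without control DN replicate 3, are 19 higher and 3 lower). In thymocytes (0) it was 1 with quantile normalization and 0 to 1 with arrays left out. For the DN minus thymocyte effect (0) it was 3 with quantile normalization and 0 to 2 with arrays left out. For the DN1 minus DN effect (1) it was 8 with quantile normalization, 3 with a stricter filter on dim probes and 0 to 4 with arrays left out. It was 0 with normexp background, scaling to probes well above background on all arrays, no filter, the slide as a block, the replicate block, only the groups compared, or without the 2 dim control DN arrays. For control DN minus control thymocytes (5) it was 14 with normexp background (10 higher, 4 lower), 9 with quantile normalization, 3 with the other scaling, 0 with the slide as a block, 1 with only the groups compared, 2 without the dim arrays and 4 to 24 with arrays left out. For control DN1 minus control DN (10) it was 0 with normexp background or only the groups compared, 6 with the other scaling, 4 with the slide as a block, 2 without the dim arrays and 0 to 11 with arrays left out. The replicate block gave 19 in DN cells and 6 in the last comparison. Same-numbered arrays did not deviate together (correlations of -0.52 to 0.50, 12 of 40 above 0.1), so the numbers were not taken as pairs. The cause of these changes was not tested. Leaving out the dim arrays was chosen after seeing the data and leaves 1 control DN array, assumed to vary like the other groups.

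Constant-side probes without a call changed sign when single arrays were left out. In thymocytes the I alpha probe A_51_P270661 ran from -0.73 to 0.20. In DN1 cells A_51_P108512 ran from -0.07 to 0.63, A_51_P180159 from -0.04 to 0.89, A_51_P187645 from -0.05 to 0.66, A_51_P270661 from -0.43 (and -0.29) to 0.69, A_52_P358360 from -0.11 to 0.37 and A_52_P74106 from -0.33 to 0.96. A_52_P358360 was at -0.06 with the slide as a block. In DN cells the heavy V median ran from -0.38 (without control DN replicate 3) to 4.25 (without the dim arrays), and the lambda median from 4.81 to 7.59. Scaling by probes well above background on all arrays moved the median of all tested probes in DN cells from -0.65 to -0.90.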

Other observations

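Probes outside the name rule but described in the files as immunoglobulin (87, chosen after the data were seen) gave 9 calls among 82 tested in DN cells, all higher (2.33% of all tested probes were called higher), with a median difference of 1.70. In thymocytes 1 of 83 was called, higher (0.926% of all tested probes; median 2.17), and in DN1 cells 0 of 87 (limma; 0.109% of all tested probes in either direction; median 0.75).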
